A study of Mus musculus with 2 samples.

Results

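The expression of Areg was followed across innate lymphoid cells (ILCs) of mouse skin. Areg is 1 of 18786 genes in a table of UMI counts for 5246 single cells. It was looked up by its symbol, and cells with more than 10% of their UMIs from mitochondrial genes were left out. A UMI is a molecular barcode, so that PCR copies of 1 RNA molecule count as 1. The cells were sorted from C57/BL6 skin of postnatal day 1 and postnatal day 14 as CD45+, lineage-negative, Thy1.2+ cells after collagenase A digestion, and were captured with a 10x Genomics 5' kit. Each day had 1 library, and no treatment or mutant allele is named in the labels. The labels name neither the sex nor the number of mice behind a library.

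Cell names end in a suffix that splits them into 2 sets, and the suffix matches neither day. The sets are called cell set 1 and cell set 2, and the days were not compared. Set 1 kept 1441 of 1471 cells and their median depth was 10683 UMIs, with 2667 genes. Set 2 kept 3508 of 3775 cells and their median depth was 4849 UMIs, with 1548.5 genes. Gata3, the ILC2 factor, was found in 82.7% of the cells of set 1 and 70.1% of set 2, and Cd3e, which ILCs mostly lack, in 5.07% and 1.25%. Cd3g, also on the T cell marker list, was common. It was found in 88.7% of the 692 cells that formed the largest cluster of set 1. In the largest cluster of set 2, with 1141 cells, the share was 76.7%. Of the 16-base barcodes of kept cells, 3 occurred in both sets. Where depth could set a value, each cell was thinned at random to 4108 UMIs, which left 1378 and 2334 cells and left out 63 and 1174 shallower ones. Cells of 1 library are not replicates, so no test was run and all intervals are 95% intervals of counting error only.

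Amphiregulin, the product of Areg, is a ligand of the epidermal growth factor (EGF) receptor. It is made as a membrane protein, and the protease ADAM17 sheds it from the cell surface. Group 2 ILCs (ILC2s), which depend on the transcription factor GATA3 and make IL-5 and IL-13, are a known source of amphiregulin in mouse barrier tissues, where it is linked to epithelial repair. Its transcription is known to respond to cAMP through a CREB element close to its start site.

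The Areg gene lies on chromosome 5 from 91139599 to 91148432 on the plus strand of GRCm38, with 1 annotated protein-coding transcript of 6 exons and 1215 bases, and no other annotated gene overlaps it. The 250 bases before its start site are shown because they hold a match to the CREB element. The window is chr5:91139349-91139598 of GRCm38.p6, plus strand, taken from RefSeq, and its capitals mark the motifs searched. A full cAMP-response palindrome, TGACGTCA, begins at base -61, counted back from the start site, and a TATA box, TATAAA, begins at -31.

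Areg promoter: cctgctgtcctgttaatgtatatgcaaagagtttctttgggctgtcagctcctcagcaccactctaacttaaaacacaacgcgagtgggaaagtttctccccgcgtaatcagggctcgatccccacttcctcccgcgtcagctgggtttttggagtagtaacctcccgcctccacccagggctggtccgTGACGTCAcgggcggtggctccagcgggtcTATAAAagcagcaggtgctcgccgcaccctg

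The 3 genes that followed Areg most closely in both sets, named further on, were searched on both strands for the same motifs and for the AP-1 site TGACTCA. The window of Srgn at chr10:62527446-62527695, minus strand, held TATAAA at -98. The other annotated Srgn window and the windows of Gata3 and Il5 held none of the 3 motifs. Across 32851 promoter windows of 250 bases, 1.55% held TGACGTCA, 4.46% TGACTCA and 12.4% TATAAA. A match describes the letters and does not show that a factor binds there.

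Areg was abundant in both sets and very unevenly spread over cells. Set 1 held 10544 Areg UMIs, or 638 UMIs per 1000000 of the set (CPM; 626 to 651). Set 2 held 17860, or 991 CPM (976 to 1005). The ratio of set 1 to set 2 was 0.644 (0.629 to 0.660), and 0.614 in thinned cells. The median of 9495 genes with 100 or more UMIs stood 0.14 higher in set 1 on the log2 scale.

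About as many cells of each set had an Areg UMI, 55.4% of set 1 (52.8 to 58.0%) and 55.8% of set 2 (54.1 to 57.4%), although cells of set 1 were read more deeply. At equal depth the shares separated, with 45.4% of set 1 (42.7 to 48.0%) and 58.4% of set 2 (56.4 to 60.4%). Thinned to 2000 UMIs they were 35.4% and 45.3%. Had every cell carried Areg at the rate of its set, 1.37% of the cells of set 1 and 3.95% of those of set 2 would have shown none, against 44.6% and 44.2% observed.

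Most Areg RNA came from a minority of cells. The 10% of cells with the most Areg UMIs, 145 cells of set 1 and 351 of set 2, held 62.7% and 58.0% of all Areg UMIs. The top 1% held 15.3% and 14.6%. Single cells reached 184 UMIs in set 1 and 140 in set 2. After thinning, the variance of Areg UMIs over cells was 11.3 times their mean in set 1 and 13.7 times in set 2, where a single common rate would give about equal values. Cells with 3 or more Areg UMIs made up 25.5% of the thinned cells of set 1 and held 89.4% of the Areg UMIs there. Among cells with Areg, the median level was 5.16 UMIs per 10000 in set 1 and 9.29 in set 2.

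**Figure D1:**
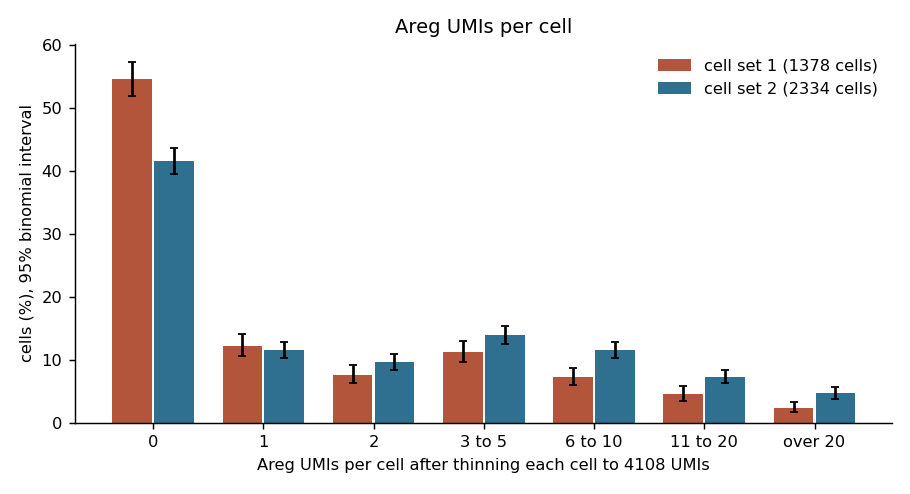
Share of cells (y axis, %, with exact 95% binomial intervals) by the number of Areg UMIs in the cell (x axis) after every cell was thinned to 4108 UMIs, for the 1378 cells of set 1 and the 2334 of set 2. Cells with 0 Areg UMIs made up 54.6% of set 1 and 41.6% of set 2, and both sets had a tail beyond 20 UMIs, 2.39% of the cells of set 1 and 4.67% of those of set 2.

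Free RNA can put UMIs of an abundant gene into cells that do not express it, and no cell type that must lack Areg was at hand. The groups of cells with the least Areg are given as a reference. In set 1, a group of 47 dividing cells found by clustering that set alone had 12 Areg UMIs, or 18.7 CPM (9.65 to 32.6), with a UMI in 14.9% of cells (6.20 to 28.3%) at a median of 13126 UMIs per cell. Set 2 had a group of 354 cells led by Tbc1d10c with 146 CPM (126 to 168) and a UMI in 18.1% of cells at a median of 3695.5 UMIs. A low Areg count in a single cell can therefore be background. The levels over each whole set and over most groups were higher than these. The part of free RNA in other groups was not tested, since these groups were picked for low Areg and differ in depth from the shallow groups.

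Areg differed between kinds of cell. Cells were first clustered jointly, with Areg left out of the genes used, and most clusters came almost wholly from 1 set. In set 1, the 692 cells of the cluster led by Igsf5, Slc38a4, Il5 and Calca had the highest level, 810 CPM (790 to 830), and 62.6% of them had a UMI. Cycling cells had 538 CPM, the cluster of Tyrobp, Fcer1g and Il22 had 523 CPM, and the 195 cells of the cluster of Dusp2, G0s2 and Ccr6 had 275 CPM (249 to 304).

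Set 2 had its highest level in a small cluster of 82 cells with 2626 CPM (2485 to 2772), in which 92.7% had a UMI. These cells were led by Il1rl1, which encodes the IL-33 receptor ST2, Klrg1, an ILC2 surface receptor, Lgals3, Il5 and Csf2, and 7 of the 13 ILC2 markers were raised in them. Raised means at least 20 CPM, at least 2 times the level of other cells of the set, and detection in 10% or more of the cluster's cells. By these markers the cluster was ILC2-like. The next in order were the 1141 cells led by Hopx, Cd70, Ccr7 and Palld with 1140 CPM. They were followed by 57 shallow cells, at a median of 751 UMIs, that were led by hair keratin-associated protein genes, stayed unnamed and had 1088 CPM (885 to 1325), by a cluster of 923 cells with 1007 CPM, and cycling cells with 986 CPM, whose interval (931 to 1044) overlapped that of the 923 cells (977 to 1037). Another 76 shallow cells led by Nabp1 had 647 CPM (498 to 826), and 1045 cells led by heat-shock genes and Id3 had 630 CPM (608 to 653). The 42 cells of set 2 in the cluster of Tyrobp and Fcer1g had 359 CPM (284 to 448).

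Clustering each set by itself drew the contrast in set 1 more sharply. A group of 174 cells led by Ptgs2, the gene of cyclooxygenase-2, Zfp667, the stress gene Gadd45b, the chemokine gene Cxcl2 and Plaur, the urokinase receptor gene, had 1587 CPM (1532 to 1644) and a UMI in 85.1% of cells. It was 12.1% of the cells of set 1 and held 29.8% of its Areg UMIs, and 1 cell with 184 UMIs held 5.85% of the group's total. The ILC2 markers Rora, Il1rl1, Il5 and Hs3st1 were raised in it, and so were the T cell receptor genes Trac and Trdv4. Its alpha beta T cell markers summed to 801 CPM, against 1231 CPM in the other cells of the set. For the gamma delta T cell markers these sums were 152 and 133 CPM. The largest group of set 1 was 394 cells in which Calca and Il5 were raised, and also the mast cell markers Cma1 and Cpa3. These cells had only 517 CPM (496 to 538) of Areg, below the 638 CPM of the whole set. The joint cluster of 692 cells had held 389 of these cells together with 170 of the 174 cells of the Ptgs2 group. Its level was therefore not shared by all cells led by Calca and Il5. Dividing cells were split into groups of very different Areg level. The 288 cells led by histone genes had 632 CPM (610 to 654) and a UMI in 74.0% of cells, whereas the 47 cells led by the mitotic genes Cenpf and Aspm, in which Ccr6 and the gamma delta T cell receptor gene Trdc were raised, had 18.7 CPM.

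In set 2, the Il1rl1 and Klrg1 group was found again with 100 cells and 2548 CPM (2420 to 2681). It was 2.85% of the cells and held 8.30% of the Areg UMIs. The 676 cells led by Cd70, Tph1, the gene that starts serotonin synthesis, and the costimulatory receptor gene Tnfrsf4 had 1319 CPM and held 29.0% of them. The 4 groups led by histone genes, by S100a6, by Ccr2 and by heat-shock genes lay between 875 and 984 CPM. The group led by Tbc1d10c, in which Ccr6, Lta and Cd3g were raised, had 146 CPM. Those 354 cells were 10.1% of the set and held 1.11% of its Areg UMIs.

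**Figure D2:**
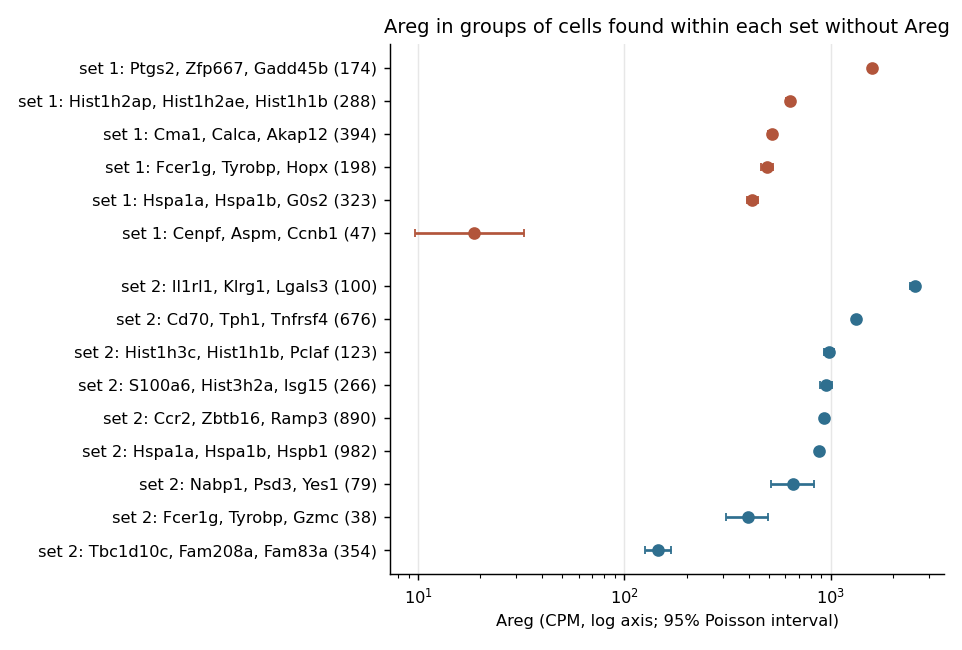
Areg level (x axis, CPM, log scale, exact 95% Poisson intervals) in groups of at least 30 cells found by clustering each set alone without Areg (y axis, named by their 3 leading genes, cell number in brackets). Levels ran from 18.7 to 1587 CPM in set 1 and from 146 to 2548 CPM in set 2.

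Areg also varied with single genes and with depth. Cells with an Areg UMI had a median of 11789 UMIs and cells without had 9448.5 in set 1, against 5209 and 4394 in set 2. Cells with a UMI of Il1rl1 had 1043 CPM of Areg and cells without had 596 CPM in set 1, and in set 2 the levels were 2014 and 948 CPM. With and without Klrg1 the levels were 929 and 621 CPM in set 1, while set 2 had 2574 and 960 CPM. In thinned cells the Klrg1 levels of set 1 were 721 CPM (569 to 901) and 627 CPM (607 to 649), whose intervals overlap, and those of set 2 were 2654 and 995 CPM. In set 1, the 73 cells with a UMI of Cd3e, a T cell receptor chain, had 637 CPM (584 to 692) and the others 639 CPM, but in thinned cells the levels were 493 CPM (389 to 616) and 633 CPM (612 to 654). In set 2, the 44 cells with Cd3e had 241 CPM (179 to 317) and the others 1000 CPM. In 4 equal bins of UMIs per cell, from the shallowest to the deepest, Areg stood at 492, 585, 803 and 600 CPM in set 1 and at 842, 856, 1028 and 1081 CPM in set 2. Cells with 3 or more UMIs of cycling genes had 616 CPM and the others 658 CPM in set 1, and the same levels in set 2 were 1006 and 989 CPM. Both sets held cells of either sex. Cells with Xist and no Y-linked UMI had Areg at 733 CPM (set 1) and 1023 CPM (set 2), and cells with a Y-linked UMI and no Xist had 632 and 958 CPM.

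The other ligands of the EGF family were nearly absent. Of 10 others on the list, 9 were in the table, 0 reached 5% of the cells of each set, and their summed level was 9.02 CPM for set 1 and 3.77 for set 2. Hbegf, the ligand HB-EGF, had most of these, with 94 UMIs in set 1 and 28 in set 2. Areg has 3 relatives beside it on chromosome 5, Epgn, Ereg and Btc. They had 8, 2 and 1 UMIs in set 1 and 1, 0 and 2 in set 2. Tgfa had 16 and 5 UMIs, Egf 10 and 12, Nrg2 14 and 15, Nrg4 2 and 5, and Nrg1 2 and 0.

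Receptors for these ligands were hardly detected either. Egfr, the receptor of amphiregulin, stood at 1.09 CPM (set 1) and 0.111 CPM (set 2). Erbb3 had 1.09 and 0.943 CPM, Erbb2 0.182 and 0 CPM, and Erbb4 no UMI in either set. Their summed level was 2.36 CPM for set 1 and 1.05 for set 2.

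To find genes that follow Areg, Pearson's r with Areg was taken over the cells of each set on log(1 + UMIs per 10000), for the 6284 genes found in at least 5% of the cells of each set, called the genes tested although no p-value was computed. These values describe 1441 and 3508 cells that share a library and a depth scaling, and they were small throughout. An r of at least 0.1 was reached by 457 genes (7.27%) in set 1, by 127 (2.02%) in set 2 and by 96 (1.53%) in both, which is 21.0% of set 1's genes and 75.6% of set 2's. An r of -0.1 or lower was reached by 165 genes (2.63%) in set 1 and 8 (0.127%) in set 2, and by 1 gene (0.0159%) in both. Set 1 was read more deeply, and at equal depth the counts were 210 in set 1, 87 in set 2 and 55 in both. The median r of all genes was -0.01 in set 1 and -0.00 in set 2.

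The same genes were then set side by side as CPM in thinned cells with 3 or more Areg UMIs and in thinned cells with 0, which were 351 and 753 cells in set 1 and 872 and 970 in set 2. They are called Areg-rich and Areg-free, although a cell with 0 UMIs may hold some Areg RNA. Areg itself was taken out of the totals.

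The 12 genes whose lower r of the 2 sets was highest were Srgn, Gata3, Il5, Plscr1, Pim1, Tnfrsf18, Rel, H3f3b, Traf1, Hilpda, Hif1a and Slc25a3. Their r ran from 0.19 to 0.33 in set 1 and from 0.17 to 0.25 in set 2. Taken within the joint clusters, it ran from 0.12 to 0.30 and from 0.10 to 0.18, and all 12 reached 0.1 in both sets. Without the Il1rl1 and Klrg1 cluster, it ran from 0.16 to 0.24 in set 2. The joint clusters did not part the Ptgs2 group of set 1 from the largest group of that set. In set 2, the joint cluster led by heat-shock genes and Id3 held 672 cells of the heat-shock group (875 CPM). It also held 335 of the 354 cells of the Tbc1d10c group (146 CPM). The values within joint clusters therefore still hold Areg differences between such groups in both sets. Plscr1, an interferon-inducible scramblase gene, had ratios of 2.39 and 3.61 (2.85 to 4.60). Srgn encodes serglycin, the core protein of secretory granules, with r of 0.28 and 0.25. It stood at 2542 CPM in Areg-rich cells and 1784 CPM in Areg-free cells of set 1, and at 2734 and 2014 CPM in those of set 2.

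Gata3 had r of 0.28 and 0.23. Its level was 828 CPM in Areg-rich and 424 CPM in Areg-free cells of set 1 (ratio 1.95, 1.80 to 2.11), and 760 and 443 CPM in those of set 2 (ratio 1.72, 1.62 to 1.82). From 0 through 1 to 2 to 3 or more Areg UMIs, Gata3 read 424, 637 and 828 CPM in set 1, while set 2 read 443, 695 and 760 CPM. Cells with 6 or more, part of the last group, were at 822 and 782 CPM, inside its intervals of 781 to 876 and 732 to 789.

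Type 2 cytokine genes stood well higher in Areg-rich cells of both sets. Il5, the eosinophil growth factor, was at 313 CPM in Areg-rich and 53.7 CPM in Areg-free cells of set 1 (ratio 5.83, 4.87 to 7.01), and at 392 and 119 CPM in those of set 2 (ratio 3.28, 2.96 to 3.65). Csf2, which encodes GM-CSF, had ratios of 4.09 (3.1 to 5.42) and 3.17 (2.72 to 3.70), and Il13 of 3.14 (2.78 to 3.55) and 2.28 (2.10 to 2.47). Il4 had 3.04 in set 1 and 2.48 in set 2, with r of 0.18 and 0.05. Of the 6 genes tested from the list of type 2 cytokines and neuropeptides, 5 reached r of 0.1 in set 1 and 3 in set 2, with list medians of 0.20 and 0.11. Calca, the gene of the neuropeptide CGRP, was the other one in set 1. Over all genes tested, the shares at r of 0.1 or more were 7.27% in set 1 and 2.02% in set 2.

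Areg climbed with the number of type 2 cytokine genes found in the same cell. In thinned cells with a UMI of 0, 1, 2 and 3 or 4 of Il4, Il5, Il13 and Csf2, Areg stood at 351, 701, 1178 and 1642 CPM in set 1 and at 698, 1019, 1482 and 1914 CPM in set 2. A UMI of Areg was found in 33.0, 53.6, 65.9 and 69.0% of these cells in set 1 and in 47.4, 58.7, 74.4 and 84.2% in set 2. Even so, thinned cells with none of the 4 cytokine genes still had Areg at 351 CPM (330 to 373) and 698 CPM (672 to 725), above the low-Areg groups described earlier.

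**Figure D3:**
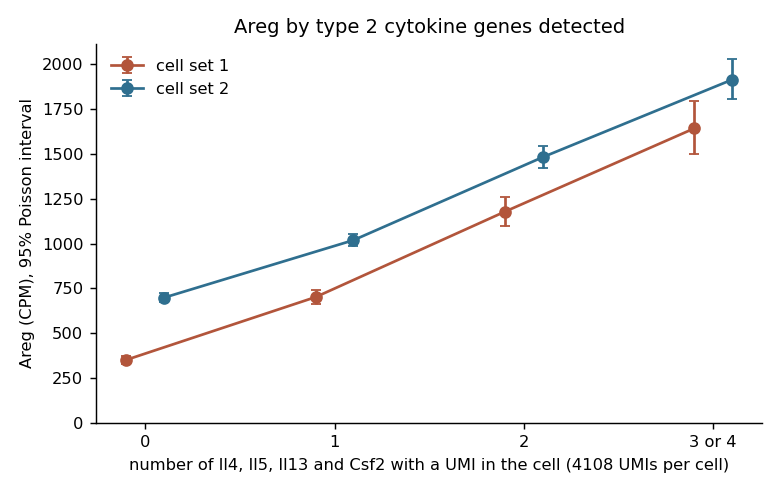
Areg level (y axis, CPM, exact 95% Poisson intervals) in cells thinned to 4108 UMIs, by how many of Il4, Il5, Il13 and Csf2 had a UMI in the cell (x axis), for set 1 and set 2. Both lines climb at each step, to 1642 CPM for set 1 and 1914 CPM for set 2.

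NF-kB target and feedback genes followed Areg in both sets. Of 12 tested, 10 reached r of 0.1 in set 1 and 5 in set 2, with medians of 0.18 and 0.09. The shares of all genes tested were 7.27% and 2.02%. Nfkbia, the inhibitor IkB-alpha, was at 2345 CPM in Areg-rich and 1121 CPM in Areg-free cells of set 1 (ratio 2.09, 1.99 to 2.19), and at 2270 and 1534 CPM in those of set 2 (ratio 1.48, 1.43 to 1.53). Rel, an NF-kB subunit gene, had ratios of 1.92 and 1.40, and Traf1, an adaptor of TNF receptors, 2.11 and 1.55. Tnfaip3, which encodes the inhibitor A20, had 2.20 (2.03 to 2.40) in set 1 and 1.15 (1.09 to 1.22) in set 2. Pim1, a kinase gene induced by cytokine receptors, had 2.09 and 1.45.

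Costimulatory and cytokine receptors made up the next group. Tnfrsf4, the receptor OX40, had 66.7 CPM in Areg-rich and 9.38 CPM in Areg-free cells of set 1 (ratio 7.12, 4.66 to 11.2), and 137 and 78.8 CPM in those of set 2 (ratio 1.74, 1.50 to 2.01). Tnfrsf18, the receptor GITR, had ratios of 1.61 and 1.71, and Il2ra, a chain of the IL-2 receptor, of 1.67 and 1.89. Icos had 1.48 (1.39 to 1.57) in set 1 and 1.03 (0.990 to 1.06) in set 2. Of 16 alarmin and cytokine receptor genes tested, 5 reached r of 0.1 in each set, and Il18r1 was at -0.1 or lower in set 1. Of all genes tested, 7.27% in set 1 and 2.02% in set 2 reached 0.1, and 2.63% in set 1 were at -0.1 or lower. Adora2a, an adenosine receptor that raises cAMP, had ratios of 2.26 (1.69 to 3.04) and 2.20 (1.71 to 2.84), and was the only one of 9 tested cAMP-linked receptors to reach r of 0.1 in set 2, where it had 0.14 and 0.094 within the joint clusters, against 5 of them in set 1.

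Transcription factors of ILC2s were partly among these genes. Of 18 tested, 7 reached r of 0.1 in set 1 and 4 in set 2, beside 7.27% and 2.02% of all genes tested. Gata3, Rora, Id2 and Hif1a did so in both, although within the joint clusters the r of Rora in set 2 was 0.054 and that of Id2 0.074. Rora, which ILC2s require, had ratios of 1.50 (1.44 to 1.58) and 1.15 (1.11 to 1.19). Hif1a, the hypoxia-response factor, had 1.47 and 1.34, and Hilpda, a lipid droplet gene that it induces, 1.88 and 1.55. Tcf7, a factor of early ILCs, was at -0.1 or lower in set 1, and Bcl11b in set 2. Among metabolic genes 5 of 9 reached r of 0.1 in set 1 and 3 of 9 in set 2, beside the same shares of all genes tested. Dgat2, which makes triglyceride, had 2.61 (1.21 to 5.72) and 2.05 (1.69 to 2.51).

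**Figure D4:**
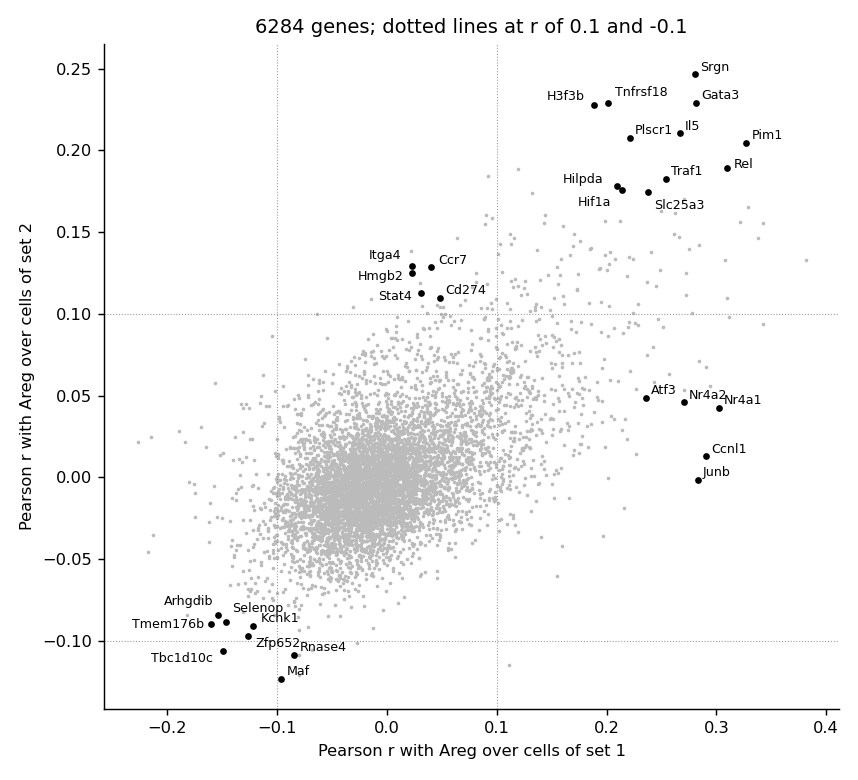
Pearson's r with Areg over the 1441 cells of set 1 (x axis) and the 3508 cells of set 2 (y axis) for 6284 genes (grey), with the named genes that lay highest or lowest in both sets or high in 1 set in black. Srgn and Gata3 lie at the upper right, Maf and Tbc1d10c at the lower left, and Junb lies at 0.28 in set 1 and -0.00 in set 2.

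The cAMP, AP-1 and other early-response genes followed Areg in set 1 and much less in set 2. Of 17 cAMP and CREB response genes tested, 10 reached r of 0.1 in set 1 and 2, Rgs2 and Fosl2, in set 2. Of 16 AP-1 and early-response genes, 9 did so in set 1 and 1 in set 2. Of 16 genes of MAPK and RNA decay feedback, 10 did so in set 1 and 4 in set 2. These counts stand beside shares of 7.27% and 2.02% over all genes tested.

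Among single genes, Nr4a1, an orphan receptor gene induced by activation, had r of 0.30 in set 1 and 0.04 in set 2, and within the joint clusters 0.29 and 0.10. It was at 1173 CPM in Areg-rich and 559 CPM in Areg-free cells of set 1 (ratio 2.10, 1.96 to 2.24), and at 739 and 671 CPM in those of set 2 (ratio 1.10, 1.04 to 1.16). Junb, an AP-1 subunit gene, was at 3439 and 2143 CPM in set 1 (ratio 1.61, 1.55 to 1.67), and at 2824 and 2910 CPM in those of set 2 (ratio 0.971, 0.945 to 0.997). It was abundant in both sets, with a UMI in 95.1% and 93.5% of cells. Nr4a2, Atf3 and Ccnl1 had ratios of 2.05, 1.73 and 1.61 in set 1 and 1.12, 1.18 and 1.06 in set 2. Furin, a protease gene, had r of 0.31 and ratio 1.99 in set 1, and r of 0.0982 and ratio 1.19 in set 2.

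Among 12 heat-shock genes tested, 2 reached r of 0.1 in set 1, Dnaja1 and Hspa8, and 0 in set 2. Of all genes tested, 7.27% did so in set 1 and 2.02% in set 2. Dnaja1, a co-chaperone gene, stood at 2267 CPM in Areg-rich and 1721 CPM in Areg-free cells of set 1 (ratio 1.32, 1.26 to 1.38), and at 1199 and 1055 CPM in those of set 2 (ratio 1.14, 1.09 to 1.19). Hspa8, a chaperone gene, had ratios of 1.17 (1.13 to 1.21) and 1.03 (0.995 to 1.06). Their r in set 1 was 0.18 and 0.12, and it was 0.098 for Dnaja1 within the joint clusters and 0.068 for Hspa8 in thinned cells. The list as a whole had a ratio of 1.07 (1.06 to 1.09) in set 1 and 0.965 (0.951 to 0.979) in set 2. Hspa1b stood at 1102 CPM in Areg-rich and 1089 CPM in Areg-free cells of set 1 (ratio 1.01, 0.953 to 1.08), and at 841 and 1259 CPM in those of set 2 (ratio 0.668, 0.638 to 0.699). Of 8 glucocorticoid response genes, 4 reached r of 0.1 in set 1 and 0 in set 2.

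The 5 genes with the highest r in set 2 among those under 0.05 in set 1 were Itga4, Ccr7, Hmgb2, Stat4 and Cd274. Within the joint clusters Itga4 was the only one of the 5 still at 0.1 or more in set 2, with 0.12. Itga4, an integrin chain, had a ratio of 0.972 (0.778 to 1.21) in set 1, while in set 2 it was at 49.0 CPM in Areg-rich and 16.6 CPM in Areg-free cells (ratio 2.96, 2.22 to 3.99). Ccr7, a receptor for migration to lymph nodes, had 0.708 (0.509 to 0.971) in set 1 and 1.48 (1.37 to 1.59) in set 2. With unthinned counts and the fifth of cells richest in Areg, the set 1 ratio of Ccr7 was 1.02. Cd274, the checkpoint ligand PD-L1, had 1.50 (1.06 to 2.13) in set 1 and 1.49 (1.31 to 1.70) in set 2, with overlapping intervals, while its r were 0.05 and 0.11.

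Genes opposite to Areg were fewer and their r was weaker. The 8 genes with the lowest r in both sets, taken by the higher of the 2 values, were Tbc1d10c, Zfp652, Maf, Kcnk1, Tmem176b, Selenop, Rnase4 and Arhgdib, and their r ran from -0.16 to -0.08 in set 1 and from -0.12 to -0.08 in set 2. Tbc1d10c was the only gene at -0.1 or lower in both, with -0.15 and -0.11, but its r was -0.096 and -0.099 in thinned cells, where Maf had -0.10 and -0.13. Within the joint clusters it was -0.11 and -0.066, and 0 of the 8 genes were at -0.1 or lower in set 2. Tbc1d10c encodes carabin, an inhibitor of calcineurin and Ras signalling, and had 20.2 CPM in Areg-rich and 42.7 CPM in Areg-free cells of set 1 (ratio 0.472, 0.305 to 0.710), and 22.9 and 45.7 CPM in those of set 2 (ratio 0.502, 0.382 to 0.656). Tmem176b, a gene of ILC3s, had 0.301 (0.205 to 0.430) and 0.684 (0.599 to 0.780). Maf, a transcription factor gene, had 0.689 and 0.745, and Selenop, a selenoprotein gene, 0.412 and 0.300.

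Markers of other ILCs did not all lean one way. Of 5 ILC3 markers tested, 0 reached r of 0.1 in either set. All 12 on the list together stood at 327 CPM in Areg-rich and 602 CPM in Areg-free cells of set 1, and at 422 and 598 CPM in those of set 2. The ILC1 and NK cell markers summed to 307 CPM in Areg-rich and 273 CPM in Areg-free cells of set 1 (ratio 1.12, 1.00 to 1.26), and to 430 and 376 CPM in those of set 2 (ratio 1.14, 1.06 to 1.23). The ILC precursor markers had ratios of 1.19 (1.13 to 1.25) and 1.17 (1.14 to 1.21). Of 10 ILC2 markers tested without Areg, 8 reached 0.1 in set 1 and 4 in set 2. Of 15 homing and residency genes, 5 reached 0.1 and 3 were at -0.1 or lower in set 1, and 2 and 0 in set 2. The same shares over all genes tested were 7.27% and 2.63% in set 1, and 2.02% and 0.127% in set 2. Ccr2 and Ccr6, chemokine receptor genes, had ratios of 0.474 and 0.419 in set 1 and 0.645 and 0.775 in set 2.

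Of the markers of cells other than ILCs, the erythroid, B cell and T cell ones stood lower in Areg-rich cells of both sets. The B cell markers, with few UMIs, had ratios of 0.472 (0.202 to 0.986) and 0.454 (0.270 to 0.741). The alpha beta T cell markers had 0.816 (0.769 to 0.867) and 0.940 (0.905 to 0.977). The gamma delta T cell markers had 0.770 (0.642 to 0.921) and 0.856 (0.784 to 0.935). The 5 erythroid markers summed to 59.8 CPM in Areg-rich and 209 CPM in Areg-free cells of set 1, and to 19.9 and 197 CPM in those of set 2. Few cells carried much of this RNA in set 2. The haemoglobin gene Hbb-bs was at 362 CPM in the joint cluster of 923 cells, with a UMI in 4.23% of them, and at 10.8 CPM in the other cells. The 13 macrophage and dendritic cell markers summed to 50.04 and 137 CPM in set 1, and to 140 and 101 CPM in those of set 2. The 10 keratinocyte markers summed to 377 and 342 CPM in set 1 (ratio 1.10, 0.991 to 1.22), and to 330 and 247 CPM in those of set 2 (ratio 1.33, 1.23 to 1.45). Among them, Sfn reached r of 0.1 in both sets. The 8 mast cell markers summed to 206 CPM in both groups of set 1 (ratio 1.00, 0.872 to 1.15), and to 211 and 122 CPM in those of set 2, where Kit reached r of 0.1. The part of these cells or of their free RNA in the r values was not tested.

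**Figure D5:**
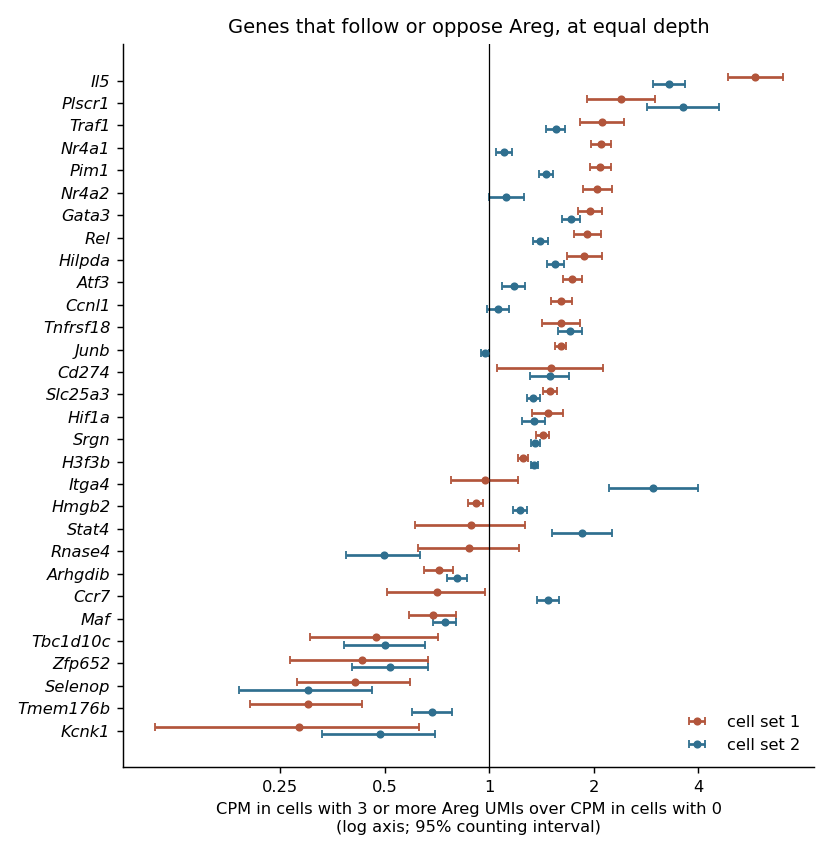
Ratio of CPM in thinned cells with 3 or more Areg UMIs to CPM in those with 0 (x axis, log scale, 95% counting intervals) for the genes marked in the plot of r (y axis), in set 1 and set 2. Il5 is the highest in set 1 with 5.83, Junb is at 1.61 in set 1 and 0.971 in set 2, and Tmem176b, Selenop, Zfp652, Kcnk1 and Tbc1d10c lie below 0.7 in both sets.

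Of the genes that shed or carry EGF family ligands, 6 of 10 were tested, and Furin alone reached r of 0.1, in set 1. The shares of all genes tested were 7.27% in set 1 and 2.02% in set 2. Adam17, which sheds amphiregulin, was present at 30.5 CPM (set 1) and 48.8 CPM (set 2), with r of 0.01 and 0.00 and ratios of 1.09 (0.751 to 1.55) and 0.941 (0.764 to 1.16). Rhbdf2, the gene of iRhom2, which brings ADAM17 to the surface, had 4.90 and 6.88 CPM, with ratios of 1.00 (0.346 to 2.61) and 0.510 (0.263 to 0.946). Adam10, a related sheddase, had a ratio of 0.662 in each set, with intervals of 0.442 to 0.969 and 0.517 to 0.844. Of 5 repair genes tested, Tgfb1 and Metrnl, a secreted factor, reached 0.1 in both sets but in neither among thinned cells, and Metrnl had ratios of 2.15 (1.31 to 3.54) and 2.50 (1.71 to 3.71).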

How the data were processed

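The submitters' processing notes list Cell Ranger 3.1.0, Seurat 4.1.0 and the genome build mm10; no settings are named. The authors deposited 1 table of UMI counts, whole numbers per gene and cell with no scaling, for 2 libraries without replicates. The cell with the fewest UMIs held 500. Set 1 held 16514632 UMIs in kept cells and set 2 18026148. Values were summed per set as CPM with exact Poisson intervals, and ratios and shares carry exact binomial (Clopper-Pearson) intervals, all at 95% and for counting error only. Doublets were not called; the 2% of cells with the most UMIs were left out as an alternative. Clusters came from scanpy 1.11.5 and leidenalg 0.10.2 (2000 variable genes without Areg, 30 components, 15 neighbours, resolution 0.5). TMM factors came from edgeR 4.0.16, as a scaling only. Seeds were fixed, and the r and ratio steps were tested on simulated data.

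Named genes were Areg, all measured EGF ligands, receptors and shedding genes, the 12 with the highest lesser r, the 8 with the lowest greater r, the 5 highest in each set with r under 0.05 in the other, and up to 4 of each further list by mean r; a few of these are not printed. Ribosomal, mitochondrial, haemoglobin, antigen receptor, sex-linked and unnamed genes were left out. Ratios need 20 UMIs over both groups. A cluster was called ILC2-like from its ILC2 markers, and groups named only by leading genes got no type. The gene and the lists were chosen with earlier results of these data known. Results for 1 gene are not reported here.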

Additional observations from a re-analysis of the deposited data

Results flagged for a closer look

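Cells left out for mitochondrial UMIs also held Areg. The 30 cells of set 1 above 10% had 153 Areg UMIs, or 1673 CPM, against 638 CPM in kept cells of that set, with a UMI in 8 cells. A single cell, with 15.6% mitochondrial UMIs, held 97 of the 153, and without it the level was 642 CPM. The 267 cells of set 2 above the limit had 128 Areg UMIs, or 438.2 CPM, against 991 CPM in kept cells, with a UMI in 58 cells, at a median of 898 UMIs per cell. These cells entered no comparison, and they were named here because they carry a signal outside the main measurement.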

How the results depend on the processing

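No paired analysis was possible because each day had 1 library and the cell names carry no replicate number. The level of Areg in set 1 was 658 CPM without cycling cells, 606 CPM with TMM scaling, 549 CPM without the 1% of cells with the most Areg, and 975 CPM with totals free of mitochondrial and ribosomal protein genes and Malat1. In set 2 it was 1045, 860 and 1501 CPM under the last 3 of these, 971 CPM without the 2% of cells with the most UMIs, 945 CPM without the Il1rl1 and Klrg1 cluster, and 1025 CPM in thinned cells. The ratio of set 1 to set 2 was 0.665 without cycling cells, 0.662 without the 2% of cells with the most UMIs, 0.676 without that cluster, 0.580 with TMM and 0.614 in thinned cells, and stayed below 1 under all 9 alternatives. TMM moved the median gene by -0.15 (log2). Leaving out a cluster was chosen after seeing the data. The share of cells with Areg in set 1 was 51.2% without cycling cells, 45.4% in thinned cells and 35.4% at 2000 UMIs. In set 2 it was 57.5% at a 5% mitochondrial limit, 58.4% in thinned cells and 45.3% at 2000 UMIs. Genes at r of 0.1 or more numbered 210 in set 1 in thinned cells and 270 within clusters, 45 in set 2 within clusters, and in both sets 55 in thinned cells and 39 within clusters. The highest group of set 1 had 1587 CPM when each set was clustered alone and the lowest 18.7 CPM. The lowest of set 2 had 146 CPM that way and 188 CPM at resolution 1. The ratio of Ccr7 in set 1 became 1.02 with unthinned counts and the fifth of cells richest in Areg, and the cause was not tested. Among the other values of single named genes, 1454 of r and 1008 of CPM ratios stayed within their error, while 106 and 132 moved further in size without a change of called direction.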
